A study of Mus musculus with 5 samples.

Results

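The gene expression of wild-type follicular regulatory T (Tfr) cells was described from the 3 RNA-seq libraries labelled WT-Tfr, out of 5 libraries in the series. Expression was read as transcripts per 1000000 (TPM), which divides the reads of a gene by its transcript length and by the total of the library, so that genes can be ranked within a library. A gene was taken into the set when its TPM, summed over the annotated rows of its gene ID, was at least 50 in each of the 3 libraries. That left 3376 of 57186 gene IDs (5.90%). They made up 23.4% of the 14412 genes that reached TPM 1 in every library. The genes were chosen by these same values, so levels and ranks are given as a description and no test was made.

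The mice had the wild-type genotype. The study's design names Foxp3-GFP reporter mice beside the conditional knockout, and the wild-type mice are taken to be these, although the labels of the libraries do not say so. All had received imiquimod, which activates TLR7, and were studied at 21 days. Cells were sorted from spleen as live CD4+ cells positive for Foxp3, CXCR5, PD-1 and ICOS, and several mice were pooled for each library. The spread between libraries is therefore a spread between pools. Background strain, age and sex of the mice were not known here. In bulk samples a lower value can come from fewer cells of a type or from less RNA per cell, and these cannot be told apart.

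Tfr cells are CD4 T cells that carry the regulatory factor Foxp3 and also the follicular receptor CXCR5, which brings them into B cell follicles. They restrain the help that follicular helper T cells give to germinal centre B cells. Their gene expression combines a regulatory part (Foxp3, CTLA-4, Helios, GITR) with a follicular part shared with helper cells (PD-1, ICOS, TCF-1, SAP), and the factor Bcl6 is needed for the follicular part.

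Depth was 6.83, 7.08 and 6.77 aligned gigabases in replicates 1, 2 and 3, and 15250 to 15634 genes per library reached a TPM of 1. Replicate 3 stood apart from the other libraries. Pearson's r of log2(TPM + 1) over the 3376 genes was 0.984 between replicates 1 and 2, 0.955 between 1 and 3 and 0.953 between 2 and 3, across genes, which are not independent replicates. It was the lowest library for 55.3% of the 3376 genes and the highest for 22.2%, which is the level against which counts of lowest and highest genes in a list are to be read. Where a result rests on replicate 3, the values of the other libraries alone are given beside it.

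All 5 marker genes of the population were in the set, and the proteins of 4 of them were used for the sort. Pdcd1, which encodes PD-1 (ENSMUSG00000026285, mm39 chromosome 1, 93966027 to 93980278), was highest, at TPM 757, 708 and 709 in replicates 1, 2 and 3, and ranked 161 of all genes by its mean. Ctla4, the inhibitory receptor that competes for CD28 ligands and was not a sort marker, stood at TPM 545, 487 and 405 and ranked 269. Icos, a co-stimulatory receptor of follicular T cells, stood at 342, 348 and 267. Replicate 3 was the lowest library for both Ctla4 and Icos. Cxcr5 (ENSMUSG00000047880) followed at TPM 296, 288 and 248, again with replicate 3 lowest. Foxp3 (ENSMUSG00000039521, chromosome X, 7439883 to 7461484) was the lowest of the 5, at TPM 82.5, 111 and 103, rank 2026. Its level depends on the row that is read. The locus that StringTie assembled at Foxp3 had TPM 302, 351 and 355, about the level of Icos. For Pdcd1 both rows gave the same values.

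**Figure D1:**
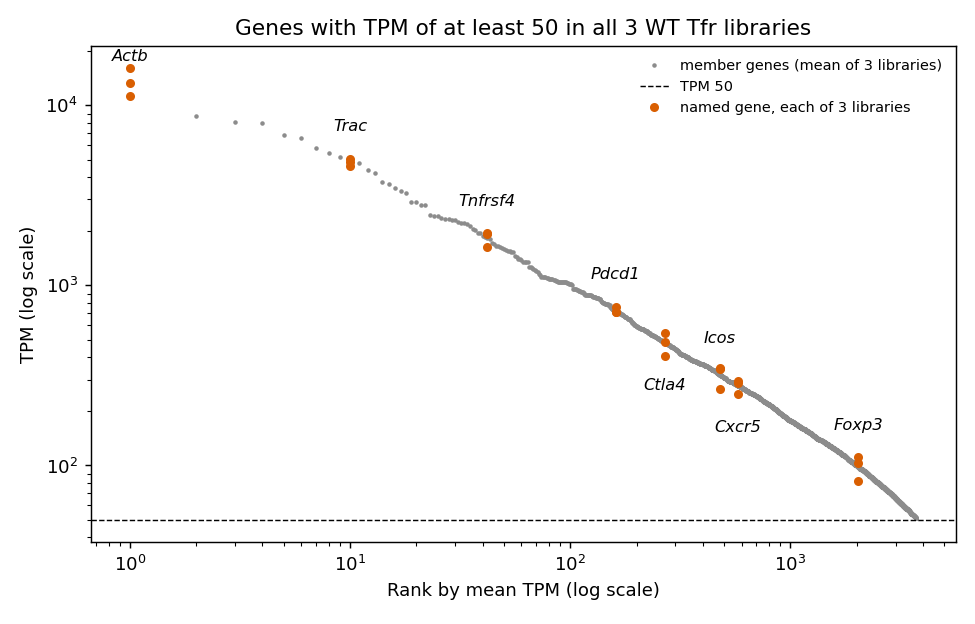
Mean TPM of the 3376 genes against their rank, both on log scales, with the 3 libraries of 8 named genes as orange points and TPM 50 as a dashed line. Actb, at rank 1, lies between TPM 11271 and 16018, Pdcd1 at rank 161 between 708 and 757, and Foxp3 at rank 2026 between 82.5 and 111.

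Of 21 regulatory T cell core genes found, 16 passed the threshold in all libraries, and the list held 0.766%, 0.767% and 0.768% of the summed TPM. The highest were the TNF receptors of co-stimulation. Tnfrsf4, which encodes OX40, stood at TPM 1924, 1628 and 1953, and Tnfrsf18, which encodes GITR, at 1247, 1155 and 1335. Izumo1r, the folate receptor 4 of regulatory cells, stood at 856, 1409 and 877. Only its replicate 2 value was high, while its depth-scaled coverage differed by 1.13-fold between the highest and lowest library. The actin-capping gene Capg stood at 909, 734 and 962, and Tigit, an inhibitory receptor, at 505, 454 and 498. Ikzf2, the gene of Helios, stood at TPM 318, 263 and 257, and Nt5e, whose product CD73 makes adenosine, at 267, 285 and 253. Lower down came Penk, a precursor of enkephalins, at 160, 195 and 241, and Lrrc32, which displays latent TGF-beta, at 92.7, 110 and 100. Lrrc32, Foxp3, Gata3, Nrp1, Gpr83, Il10ra and Il2ra followed each other in the mean, and each overlapped the next in its library range.

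Il2ra, the high-affinity IL-2 receptor chain CD25, was near the lower edge, at TPM 69.4, 79.98 and 65.1. The 5 core genes outside the set were Ikzf4 (37.7, 35.4 and 35.8), Foxp1 (38.1, 52.6 and 33.2), Satb1 (34.5, 43.7 and 39.9), Entpd1 (13.7, 16.4 and 15.6) and Bach2 (5.12, 3.93 and 2.08). Foxp1 passed TPM 50 in replicate 2 alone, and the locus assembled over it had TPM 187, 168 and 148. Of 20 genes of effector regulatory cells and suppression, 6 were in the set. The AP-1 family factor Batf stood at 1067, 933 and 1054, the TNF receptors Tnfrsf1b and Tnfrsf9 at 575, 630 and 695 and at 526, 497 and 750, and the decoy receptor Il1r2 at 590, 506 and 628. All 4 were thus well above the Foxp3 row in each pool. The chemokine receptor Ccr8 (199, 210 and 277) and Ebi3 (99.1, 86.8 and 75.2), a cytokine subunit, completed them. Il10 stayed below the threshold at 12.2, 11.7 and 33.8, and Prdm1, the gene of Blimp-1, at 32.6, 40.5 and 45.5.

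Among 23 follicular genes, 14 were in the set. Their coefficient of variation (SD over mean) had a median of 7.14%, beside 8.15% over all 3376 genes. Tcf7, the gene of TCF-1, was at TPM 695, 734 and 672, close to Pdcd1. The cytokine receptor Il21r was at 549, 525 and 604, and Sh2d1a, the adaptor SAP that T cells need to help B cells, at 447, 399 and 407. Id3, an inhibitor of E proteins, followed at 300, 293 and 260. The nuclear factors Tox (212, 212 and 194) and Tox2 (117, 133 and 121) and the receptors Slamf6 (183, 157 and 160), Cd200 (91.2, 93.4 and 73.5) and Btla (82.7, 76.6 and 76.0) were all within the set. The factor Bcl6 itself (ENSMUSG00000022508, chromosome 16, 23783802 to 23807602) was not, at TPM 39.7, 57.4 and 54.2. Replicate 1 alone kept it out. Maf, at 34.6, 39.9 and 32.0, was below 50 in every library, and so were the helper cytokines Il21 (14.6, 10.8 and 12.6) and Il4 (16.8, 14.0 and 7.48). Lef1, a relative of TCF-1, stood at 32.0, 124 and 95.7. Its annotated row in replicate 1 was low, while its depth-scaled coverage differed by 1.33-fold.

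Of 10 factors of other T helper and cytotoxic lineages, 2 were in the set, Gata3 at TPM 89.7, 101 and 102 and Rora at 70.7, 72.5 and 71.4. Tbx21, the Th1 factor T-bet, was at 15.5, 14.3 and 18.7. Eomes, a factor of cytotoxic cells, was at 7.59, 9.47 and 33.6, highest in replicate 3.

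**Figure D2:**
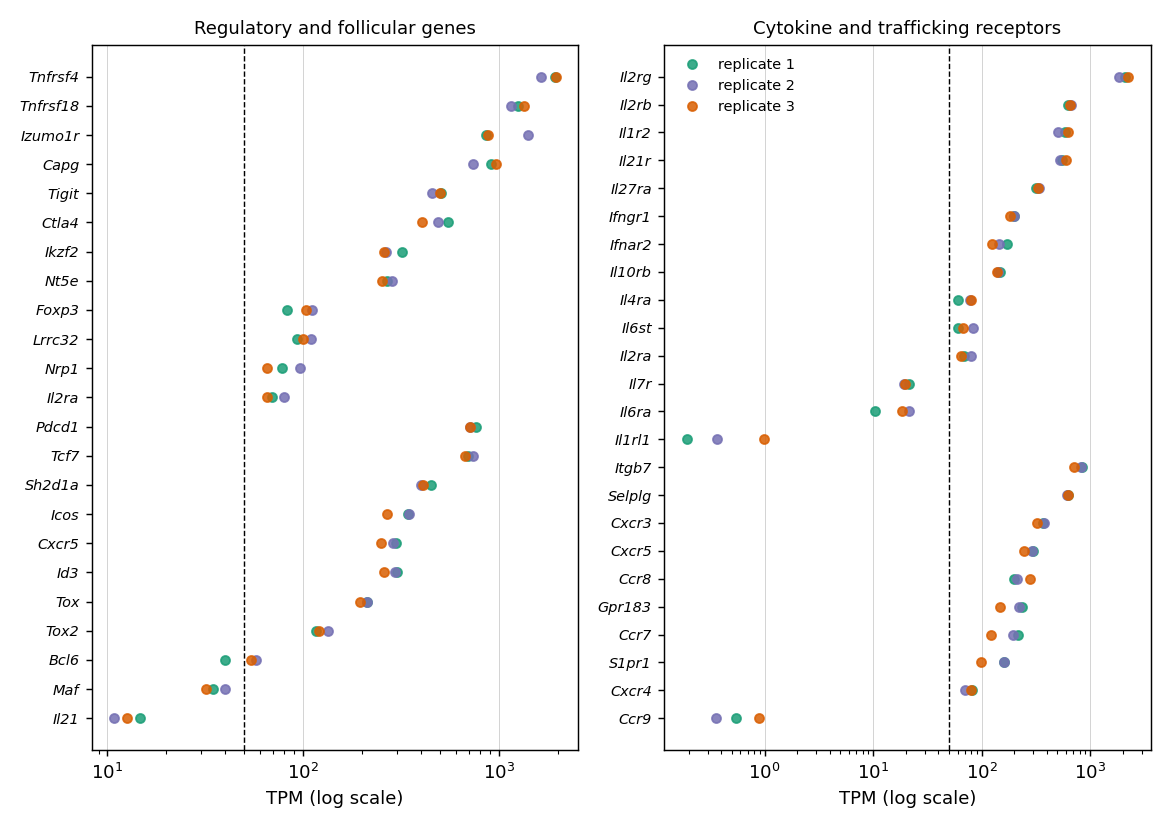
TPM on a log scale of regulatory and follicular genes (left) and of cytokine and trafficking receptors (right), 1 point per library, with TPM 50 dashed. Tnfrsf4 and Il2rg lie highest in their panels, Bcl6 straddles the line, and Gpr183, Ccr7 and S1pr1 have replicate 3 to the left of both other libraries.

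The T cell receptor complex was the most abundant receptor group, with 21 of 22 genes in the set and 2.86% ± 0.094 (SD, n = 3) of the summed TPM. The alpha constant gene Trac stood at TPM 4834, 4620 and 5011 and ranked 10 of all genes. The beta constant genes Trbc2 and Trbc1 stood at 4666, 4263 and 4222 and at 2604, 2210 and 2496, but they are near-identical copies and the split of reads between them is uncertain. Cd3g (2382, 2113 and 2429) was above Cd3e (1551, 1594 and 1739) and Cd3d (1113, 971 and 1107) in every library. The ranges of these 3 CD3 chains did not overlap. Among proximal kinases, Lck stood at 2378, 2273 and 2307, with a coefficient of variation of 2.30%, well above Fyn (416, 512 and 786) and Zap70 (282, 355 and 332). The adaptor Lat was at 949, 955 and 957 and was among the 10 genes with the smallest spread. The coreceptor Cd4 was at 559, 588 and 580. Plcg1, at 29.8, 44.9 and 42.8, was the only gene of the list outside the set. Of 144 variable segments of the receptor chains, 28 were in the set, and the most abundant was Trbv13-2 at 494, 470 and 554.

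Among 21 co-stimulatory and inhibitory receptors, 16 were in the set, and the TNF receptor family led them. After Tnfrsf4 and Tnfrsf18 came Cd27 at TPM 997, 867 and 903. The levels of these 3 genes and of Pdcd1 did not overlap. Cd83 stood at 422, 422 and 474, and Cd28, the main co-stimulatory receptor, at 248, 246 and 184, lowest in replicate 3. Near the threshold were Cd160 (73.3, 53.9 and 95.1) and Tnfrsf13b, the receptor TACI (86.1, 100.3 and 65.7). The inhibitory receptors Lag3 (16.2, 18.7 and 19.0) and Havcr2 (2.59, 1.99 and 10.7) were below TPM 20 in all pools.

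Cytokine receptor chains numbered 14 of 27 in the set and were led by the chains of the IL-2 family. Il2rg, the common gamma chain, stood at TPM 2104, 1837 and 2251, and Il2rb at 620, 672 and 658. Il2ra, the third chain of the IL-2 receptor, was far below both, at 69.4, 79.98 and 65.1, with no overlap. Il1r2, Il21r and Il27ra (318, 340 and 328) were the next, and the ranges of Il1r2 and Il21r overlapped. The interferon receptor chains Ifngr1 (201, 198 and 181), Ifnar2 (170, 146 and 125) and Ifnar1 (129, 136 and 139) were all in the set, whereas Ifngr2 was at 11.9, 10.9 and 10.1. The signalling chain gp130, encoded by Il6st, stood at 61.1, 83.0 and 66.8, and its partner Il6ra at 10.3, 21.4 and 18.5. Il7r, the receptor of naive and memory T cells, stood at 21.4, 19.1 and 19.8, and the IL-33 receptor Il1rl1 did not reach TPM 1.

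Downstream of these receptors, 10 of 17 JAK, STAT and SOCS genes were in the set. The kinase gene Jak1 stood at TPM 312, 379 and 405, and Stat6 at 194, 212 and 246. Stat3 (153, 186 and 207) and Stat5b (106, 141 and 125) were lower. Replicate 3 was the highest library in 7 of the 10. The feedback inhibitors Socs1, Socs2 and Socs3 were outside the set, with Socs3 at 41.7, 49.1 and 65.1.

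Homing and adhesion receptors had 14 of 29 genes in the set, led by the integrin chain Itgb7 at TPM 836, 821 and 703. Selplg, the selectin ligand PSGL-1, stood at 627, 610 and 619, and Itgb2 at 568, 568 and 579. The chemokine receptors ranked Cxcr3 (366, 376 and 321) above Cxcr5, and Cxcr5 above Ccr8 in the mean, with overlapping ranges of Cxcr5 and Ccr8. Replicate 3 was the lowest library for 8 of the 14, near the 55.3% over all 3376 genes. It was at least 1.5-fold below both other libraries for 4 of the 14, beside 2.84% over all 3376 genes. The chemokine receptor Ccr7 stood at 218, 193 and 123.01, the oxysterol receptor Gpr183 at 235, 223 and 146, and the lymphocyte egress receptor S1pr1 at 161, 160 and 98.9. Replicates 1 and 2 lay close for all 3. The early activation marker Cd69 went the other way, at 122.7, 112 and 175.

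Of 33 cytokines, ligands and other secreted products, 5 were in the set. Ltb, the lymphotoxin beta chain, was far above the rest at TPM 1536, 1546 and 1683. The aspartic protease Ctse stood at 599, 531 and 512, and Il16 at 106, 99.4 and 89.4. Tgfb1 (42.8, 59.0 and 66.7) and Il1rn (53.2, 46.3 and 50.7) each missed the threshold in 1 library. Il2 was at 0.862, 0.635 and 1.12.

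Of 47 transcription factors of quiescence, activation and identity, 26 were in the set. Batf was the highest in replicates 1 and 2, and Junb, an AP-1 partner, in replicate 3 (437, 516 and 1149). Ets1 stood at TPM 617, 757 and 670, Hif1a at 486, 520 and 464, Nfatc1 at 425, 504 and 468, and the NF-kB inhibitor Nfkbia at 651, 631 and 1055. Foxo1 and Klf2, factors of resting T cells, were at 79.5, 81.8 and 79.9 and at 110, 116 and 76.2. The CCAAT/enhancer-binding protein gene Cebpb was at 63.0, 57.9 and 122, highest in replicate 3, and Cebpa, the factor that the study is about, was outside the set at 12.8, 18.4 and 12.6. Irf4, a factor of effector regulatory cells, was outside the set at 16.8, 20.1 and 16.9.

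The upper end of the ranking was held by actin genes, MHC class I and ubiquitin. Actb, which encodes beta-actin, stood at TPM 16018, 13252 and 11271 and held 1.39% of the summed TPM. It was followed by Tmsb4x, which binds actin monomers (9308, 9214 and 7591), the actin regulator Pfn1 (8043, 8738 and 7337) and the class I heavy chain H2-D1 (8517, 7086 and 8191). Arhgdib (3975, 3156 and 2700) and Cd52, a small surface glycoprotein (3114, 3168 and 2447), were also among the 20 highest. So were the antibody genes Ighm, at rank 11, and Igkc, at rank 15, and the noncoding RNA Malat1, at rank 13. Ighm ranked 13, 12 and 11 in replicates 1, 2 and 3, so its high rank did not rest on replicate 3. Ubb, a ubiquitin precursor, Shisa5, a p53-induced gene, and B2m, the class I light chain (6100, 5478 and 5827), ranked 5 to 7. The 2 gene IDs named Ubb-ps, a pseudogene of Ubb, stood at 3645, 3458 and 4200.2 and at 2827, 2686 and 3250, and as copies of Ubb their reads are uncertain. H2-K1 at 4641, 4190 and 6765 was highest in replicate 3 in its annotated row only. Its depth-scaled coverage differed by 1.17-fold and was highest in replicate 1. The locus assembled at H2-K1 stood at TPM 7994, 7120 and 7564. Class I genes are also close paralogs, and the split of their reads is uncertain. The 10 highest genes held 7.51% ± 0.374 (SD, n = 3) of the summed TPM, the 100 highest 23.9% ± 1.04 and the 1000 highest 56.7% ± 0.928. The whole set of 3376 held 81.4%, 80.5% and 79.9% in replicates 1, 2 and 3.

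A small number of genes carried much of the total. There were 1392 genes with a mean TPM between 50 and 100, which held 10.7% of the summed TPM. The 102 genes with a mean of at least 1000 held 24.1%. Between them, 1318 genes at 100 to 250 held 20.6% and 564 genes at 250 to 1000 held 25.3%.

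By gene list, the cytoskeleton list held the most, with 34 of 34 genes in the set and 6.944%, 6.675% and 5.616% of the summed TPM. Beside actin genes and their regulators it holds tubulins, vimentin, S100 genes, Lgals1 and Cd52, so the share is not that of actin genes alone. Replicate 3 was the lowest library for 28 of the 34 genes. The genes of MHC class I and antigen processing had 17 of 18 in the set and held 2.73% ± 0.183. The class I transactivator Nlrc5 was the gene outside, at TPM 26.5, 52.8 and 46.4. The immunoproteasome subunit Psmb8 stood at 1016, 954 and 833. All 8 Gimap genes, small GTPases of lymphocyte survival, were in the set, from Gimap3 at 1579, 1506 and 1504 to Gimap8 at 91.9, 97.0 and 103. All 8 varied by less than 1.25-fold between libraries, as did 70.4% of the whole set.

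**Figure D3:**
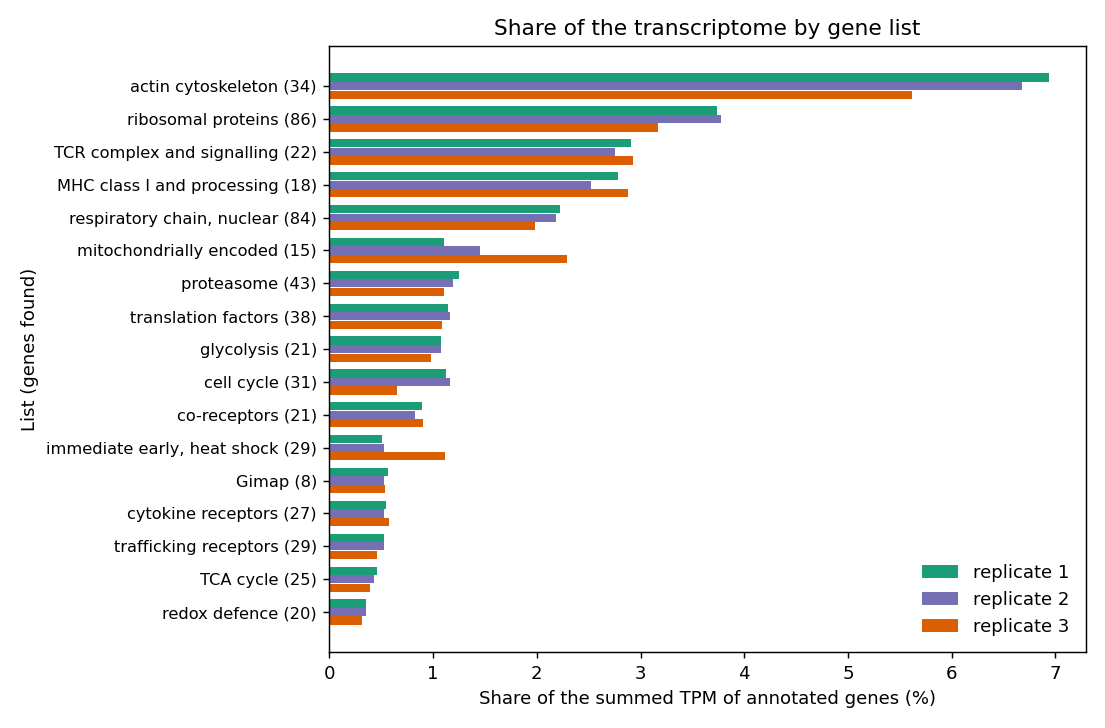
Share of the summed TPM of annotated genes (%) held by 17 gene lists in each of the 3 libraries, with the number of genes found in brackets. The list labelled actin cytoskeleton, which also holds tubulins and other genes, leads at 5.62% to 6.94%. Mitochondrially encoded genes and the immediate early and heat shock genes have their longest bar in replicate 3.

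Translation genes formed another block. Of 86 cytosolic ribosomal protein genes, 79 were in the set, and the list held 3.56% ± 0.343 of the summed TPM. Replicate 3 was lowest for 74 of the 79. Translation factors had 32 of 38 in the set, led by Eef1a1 (2069, 2207 and 1551) and Eif5a (1555, 1492 and 1622). The proteasome had 38 of 43 and the mitochondrial ribosome 36 of 78, so about as many mitochondrial ribosomal genes were below the threshold as above it.

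The glycolytic genes of the set were abundant and even. Of 21 enzymes and transporters, 14 were in the set. Each of the 14 varied by less than 1.25-fold between the highest and the lowest library, as did 70.4% of the whole set. Outside the set the spread was mixed, from TPM 24.3 to 48.7 for Eno3 and from 21.7 to 23.3 for Slc16a1. Pkm, pyruvate kinase, stood at TPM 2429, 2381 and 2227, Gapdh at 2070, 2050 and 1773, Eno1 at 1438, 1462 and 1267, Aldoa at 1273, 1235 and 1302, and Ldha, lactate dehydrogenase A, at 1096, 1075 and 944. Isoform genes of the same step differed widely. Hk1 was at 105, 116 and 112 beside 1.22, 1.63 and 1.89 for Hk2, and Pfkp and Pfkl were at 214, 220 and 199 and at 128, 144 and 140 beside 9.39, 8.59 and 10.8 for Pfkm. The glucose transporters Slc2a1 (48.7, 39.99 and 42.9) and Slc2a3 (33.9, 44.9 and 42.6) fell just short of the threshold.

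Of 25 genes listed for the tricarboxylic acid cycle and pyruvate entry, 20 were in the set. The list includes genes of cytosolic enzymes outside the cycle itself, among them Mdh1 and Idh1. The malate dehydrogenases Mdh2 (840, 780 and 779) and Mdh1 (430, 389 and 368) and the succinate dehydrogenase gene Sdha (423, 423 and 391) were highest. Idh1, at 11.1, 10.7 and 7.55, and Pcx, pyruvate carboxylase, at 2.77, 4.05 and 0.168, were low. The nuclear genes of the respiratory chain had 76 of 84 in the set and held 2.13% ± 0.130, led by the ATP synthase subunit Atp5f1b at 1341, 1242 and 1125. The 15 mitochondrially encoded mRNAs and ribosomal RNAs had 14 in the set, with 1.102%, 1.45% and 2.29% of the summed TPM. All 14 were highest in replicate 3, and mt-Co1 stood at 1376, 2005 and 3401. Replicates 1 and 2 differed here too, with a median ratio of 1.29 over the 14 genes.

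Of 27 genes of fatty acid and cholesterol metabolism, 10 were in the set, including Acly (145, 165 and 153), Hadhb (179, 173 and 151) and Fdps (108, 97.3 and 73.6). Fasn, fatty acid synthase, was at TPM 8.54, 17.9 and 16.8, and Acaca, acetyl-CoA carboxylase, did not reach TPM 1. Amino acid and one-carbon genes had 12 of 24 in the set, with the glutamine transporter Slc1a5 (364, 396 and 419), the serine synthesis enzyme Phgdh (354, 330 and 271) and Slc3a2 (233, 223 and 299) highest. The pentose phosphate pathway had 5 of 7 in the set, with Taldo1 highest at 300.2, 296 and 265. Redox defence genes had 14 of 20, led by Gpx4, which removes lipid peroxides, at 506, 513 and 501. The ferritin genes Ftl1 (3428, 3145 and 3816) and Fth1 (993, 989 and 1128) were the 2 members among 7 iron genes.

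Of 17 lysosomal proteases and related genes, 13 were in the set, led by the cathepsins Ctsb (663, 606 and 672) and Ctse. Of 20 Bcl2 family and death receptor genes found, 9 were in the set. The death effector Bax stood at TPM 365, 365 and 391, and the survival genes Bcl2a1b and Mcl1 at 299.5, 329 and 330 and at 152, 154 and 150, while Bcl2 itself was at 30.6, 32.7 and 19.5.

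Of 30 interferon-stimulated genes found, 13 were in the set. Ifi27l2a stood far above the others, at TPM 1938, 2136 and 1059, with replicate 3 lowest. Samhd1 stood at 367, 356 and 349, and the GTPase gene Ifi47 at 278, 256 and 218. Isg15 stood at 96.6, 89.2 and 85.3, and Mx1 at 8.63, 8.11 and 7.49. Replicate 3 was the lowest library for 11 of the 13.

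The set as a whole varied little between pools. The ratio of the highest to the lowest library had a median of 1.17, was under 1.25 for 2377 genes (70.4%) and under 1.5 for 3060 (90.6%). The requirement of TPM 50 in each library keeps out genes that were low in any pool, so these figures describe the set and not all genes. The median coefficient of variation was 8.15% here, 11.2% among 5116 genes whose lowest library was at TPM 10 to 50 and 18.2% among 5920 genes at 1 to 10. The 10 genes with the smallest SD of log2(TPM + 1) were Dcaf8, Dhx15, Parp3, Gfus, Msto1, Btbd6, Lat, Rhof, Grcc10 and Rheb. Dcaf8, a substrate receptor of a ubiquitin ligase, stood at 159.2, 159.2 and 159.7, and Rheb, the GTPase that activates mTORC1, at 63.3, 63.4 and 63.9. Much of the spread came with replicate 3. Between replicates 1 and 2 alone the median ratio was 1.07, 3056 genes (90.5%) were within 1.25-fold and 13 were at least 2-fold apart, beside 104 over the 3 libraries. The median SD of log2(TPM + 1) was 0.12 over 3 libraries and 0.07 without replicate 3.

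Counted per library, replicate 3 was at least 1.5-fold above both others for 60 genes (1.78% of the 3376) and at least 1.5-fold below both for 96 (2.84%). For replicate 1 these were 7 (0.207%) and 14 (0.415%), and for replicate 2 they were 13 (0.385%) and 7 (0.207%). The genes low in replicate 3 included DNA replication and mitosis genes. Of the 27 cell cycle genes in the set, 16 were at least 1.5-fold below both other libraries and all 27 had their lowest value there. Birc5, the mitotic regulator survivin, stood at TPM 314, 371 and 106, Stmn1, which destabilises microtubules, at 1001, 1081 and 442, the mitotic cyclin Ccnb2 at 282, 307 and 113, and Top2a, DNA topoisomerase II alpha, at 162, 186 and 72.8. In replicates 1 and 2 these genes were close, with a median ratio of 1.07 over the 27, so the list held 1.13% and 1.16% of the summed TPM there and 0.654% in replicate 3. The replicative helicase gene Mcm6 stood at 433, 436 and 342, and H2az1, a histone variant gene and the highest of the list, at 1820, 1830 and 1171. The proliferation marker Mki67 did not reach the threshold in every library, at 32.1, 52.1 and 19.7.

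The genes high in replicate 3 included immediate early and heat shock genes. Of 18 such genes in the set, 16 had their highest value in replicate 3 and 5 were at least 1.5-fold above both others. Dusp1, a phosphatase that ends MAP kinase signals, stood at TPM 200.4, 223 and 1150, and Dnajb1, a cochaperone, at 111, 105 and 284. Outside that list, Ppp1r15a, which restores translation after stress, stood at 79.7, 104 and 587, and Tnfaip3, the NF-kB brake A20, at 53.9, 64.9 and 223. Larger still were genes kept out by the threshold. Hspa1a and Hspa1b, the inducible Hsp70 genes, stood at 0.906, 0.710 and 679 and at 1.86, 1.38 and 866, and Fos at 48.0, 69.3 and 609. Hspa1a and Hspa1b were thus near 0 in replicates 1 and 2 and abundant in replicate 3, whereas the chaperone gene Hspa8, at 971, 894 and 1409, was abundant in all libraries. Markers of B, plasma, erythroid and cytotoxic cells were higher in the same library, and their part in these values was not tested.

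**Figure D4:**
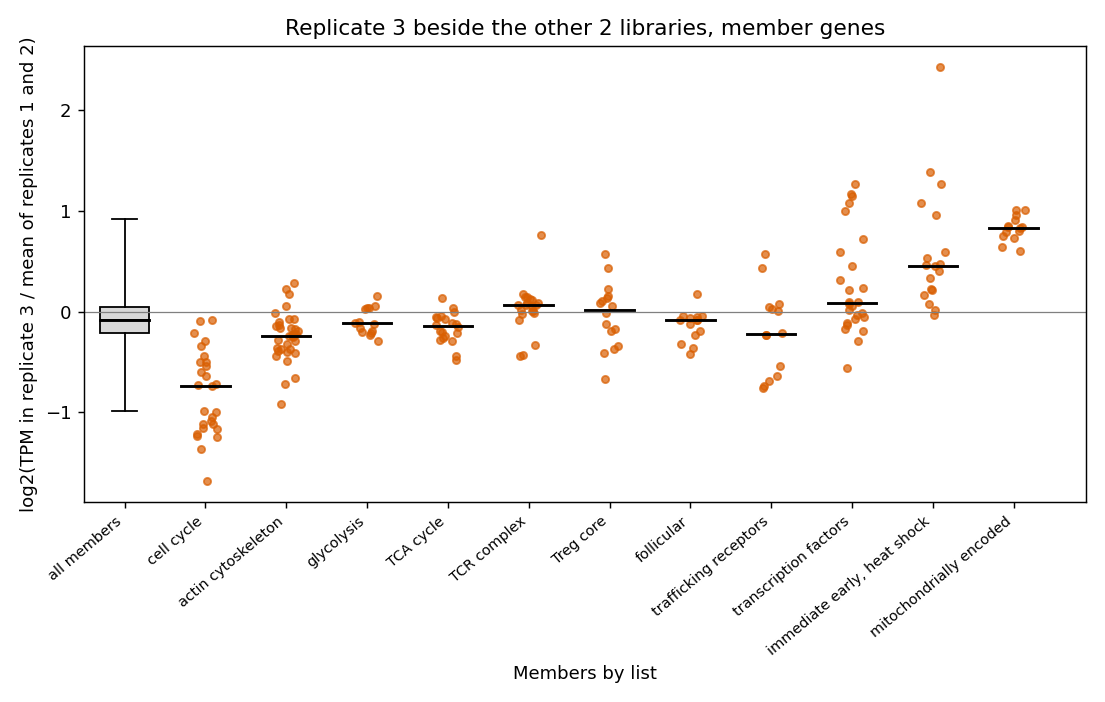
Ratio of replicate 3 to the mean of replicates 1 and 2 on a log2 scale for the genes of the set, by list. The box for all 3376 genes has its median at -0.09 with whiskers at the 1st and 99th percentile, points are single genes and bars are medians, at -0.74 for the cell cycle, 0.46 for immediate early and heat shock genes and 0.83 for mitochondrially encoded genes.

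The promoters of 4 mitosis genes that were low together in replicate 3, and of the Hsp70 pair that was high there, are shown as the 150 bases before the RefSeq transcript start, 5′ to 3′ on the gene's strand, in build GRCm38.p6. Capitals mark CCAAT on either strand (ATTGG where it lies on the other strand) in the first 4, and GAANNTTC, the core of a heat shock element, in the last 2.
Ccnb1: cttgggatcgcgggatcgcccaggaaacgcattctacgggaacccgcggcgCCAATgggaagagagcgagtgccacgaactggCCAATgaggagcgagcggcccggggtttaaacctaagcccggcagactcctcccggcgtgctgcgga
Ccnb2: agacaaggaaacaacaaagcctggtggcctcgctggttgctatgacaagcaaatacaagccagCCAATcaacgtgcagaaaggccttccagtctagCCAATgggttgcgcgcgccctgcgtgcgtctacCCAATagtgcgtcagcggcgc
Ube2c: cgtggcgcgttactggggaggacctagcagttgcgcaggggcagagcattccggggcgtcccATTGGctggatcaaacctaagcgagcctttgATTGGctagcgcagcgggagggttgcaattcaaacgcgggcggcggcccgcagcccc
Top2a: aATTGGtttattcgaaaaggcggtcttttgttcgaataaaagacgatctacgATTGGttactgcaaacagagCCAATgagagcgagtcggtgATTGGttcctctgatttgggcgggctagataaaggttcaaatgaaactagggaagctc
Hspa1a: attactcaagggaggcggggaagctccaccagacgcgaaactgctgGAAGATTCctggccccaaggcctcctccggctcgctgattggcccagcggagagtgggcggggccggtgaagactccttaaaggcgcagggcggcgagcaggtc
Hspa1b: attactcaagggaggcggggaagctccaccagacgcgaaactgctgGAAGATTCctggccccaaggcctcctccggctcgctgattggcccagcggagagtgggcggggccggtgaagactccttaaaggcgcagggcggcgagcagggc

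These windows lie at chr13:100786487-100786636 (Ccnb1), chr9:70421555-70421704 (Ccnb2), chr11:99024190-99024339 (Top2a), chr17:34972157-34972306 (Hspa1a) and chr17:34959239-34959388 (Hspa1b), all on the minus strand, and at chr2:164769779-164769928 on the plus strand (Ube2c). Ccnb1 had 2 CCAAT matches, Ccnb2 had 3, Ube2c had 2 and Top2a had 4. The Hspa1a and Hspa1b windows share 149 of 150 letters, and their transcripts are near-identical copies too, so the split of reads between the pair is uncertain. Both hold GAANNTTC with its first base 104 bases before the start. Over windows of 300 bases (250 before to 50 after the start), CCAAT on either strand was found in 37.9% of 27025 RefSeq promoters. It was in 17 of the 22 cell cycle genes of the set with a promoter (77.3%), in 12 of 16 MHC class I and processing genes (75%) and in 5 of 14 glycolytic genes (35.7%). GAANNTTC was in 7.95% of all promoters and in 4 of the same 22 cell cycle genes (18.2%). It was in 2 of the 16 MHC class I and processing genes (12.5%) and in 1 of the 14 glycolytic genes (7.14%). Promoters were found for 78.5% of the protein-coding genes of the set and for 13 of 18 immediate early and heat shock genes, under the 80% needed, so the shares over these groups are void. A match is a description of the letters and not evidence that a factor binds.

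Markers of other cell types were low in most cases and highest in replicate 3 for several lists. The B cell list had 5 of 23 genes in the set, Ighm, Igkc, Cd74, H2-Ab1 and Cd22, and 22 of 23 were highest in replicate 3. Over all 35563 genes above TPM 0 in any library, 35.9% were highest there. Its summed share was 0.705%, 0.604% and 1.67%. The immunoglobulin light chain gene Igkc stood at TPM 1275, 777 and 8908, which placed it at rank 2 in replicate 3 and 145 in replicate 2, and Ighm stood at 4562, 4081 and 5757. Cd74 stood at 660, 667 and 1053, H2-Ab1 at 68.5, 60.5 and 183 and the surface receptor Cd22 at 56.3, 68.8 and 64.8. Below the threshold were others of the list, with Cd79a at 18.9, 14.8 and 39.9 and Pax5 at 0.0155, 0.0453 and 0.0591. All 13 plasma cell genes were highest in replicate 3, among them Jchain (41.1, 21.5 and 449), and the list summed to 0.070%, 0.042% and 0.583%. The heavy chain constant gene Ighg2c, a member, stood at 261, 90.8 and 2442, which is 26.9-fold between the highest and lowest library. Of 216 antibody variable segments none was in the set, but 184 were highest in replicate 3, beside 35.9% over all genes above TPM 0. The 216 segments together held 0.0949%, 0.053% and 1.048% of the summed TPM.

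Erythroid and platelet genes summed to 0.011%, 0.008% and 0.075%, with Hba-a2, an alpha globin, at TPM 32.5, 22.1 and 254. The NK and CD8 T cell list summed to 0.037%, 0.037% and 0.106%. Nkg7, a granule protein of cytotoxic cells, was its only gene in the set, at 227, 239 and 621, and Ccl5 stood at 27.3, 20.5 and 237, while Cd8a did not exceed 0.141. The macrophage, neutrophil and stromal lists had no gene in the set. Of the macrophage genes 15 of 19 were highest in replicate 3, and their summed TPM was 172, 132 and 230. Of the neutrophil genes 12 of 15 were highest there, with sums of 29.4, 21.0 and 132. Of the 15 stromal and endothelial genes 13 stayed below TPM 1 in every library. Of the dendritic list only Bst2, which is also interferon-stimulated, was in the set. Clec9a, Pdgfrb and Cxcl12 were listed at 0 in all libraries. The part of these cell types in the values of replicate 3 was not tested.

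By annotation, 3072 of the 3376 genes (91.0%) were protein-coding and held 70.1% of the summed TPM. Another 124 were pseudogenes, 72 were segments and 3 were constant genes of the T cell receptor, 9 were antibody segments, and 40 gene IDs had no type in the release used. By chromosome, 91 were on X and 15 in the mitochondrial genome. Some entries of high rank are small gene models that lie within an abundant gene on the same strand. Gm56125, with 109 bases, ranked 8 at TPM 5321, 5128 and 5871 and lies within Ftl1, and Gm55891 lies within Actg1. All 17 microRNA genes of the set lie within a longer gene, such as Mir8119 in Lck (476, 442 and 463). Mir1668 and Mir3082 lie on the strand opposite to their host, and the strand setting was not known here. The values of the 17 genes therefore cannot be told apart from reads of the host transcript and are no measure of mature microRNA. In all, 100 genes spanned under 200 bases and held 3.55% of the summed TPM, and 44 of them lay inside a longer gene.

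A block of 6 pseudogenes at mm39 chromosome 1, 24650616 to 24655278, copies part of the mitochondrial genome and was in the set with 0.842% of the summed TPM. Atp6-ps stood at TPM 1724, 2185 and 3515 beside 1694, 2154 and 3450 for mt-Atp6. In every library, 3 of the 6 were within 5% of the mitochondrial gene listed as closest to them. These were Atp6-ps with mt-Atp6, Gm28437 with mt-Co3 and Gm28661 with mt-Co2. The reads of such copies cannot be placed with certainty.

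Some differences between libraries were in the TPM of a gene and not in its coverage per base. Of 104 genes with at least a 2-fold difference in TPM, 76 differed by at least 2-fold in coverage scaled to depth and 19 by less than 1.5-fold. Ncor1, a nuclear corepressor, stood at TPM 53.4, 167 and 53.7 with a coverage ratio of 1.01, and Dcaf11 at 56.9, 55.2 and 156 with 1.06. The long noncoding RNA Malat1 stood at 6396, 1572 and 4715, a ratio of 4.07, with a coverage ratio of 1.51. In contrast, the coverage ratios of Ppp1r15a (7.27), Dusp1 (4.98), Tnfaip3 (4.18) and Nkg7 (2.65) were close to their TPM ratios of 7.37, 5.74, 4.13 and 2.73.

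**Figure D5:**
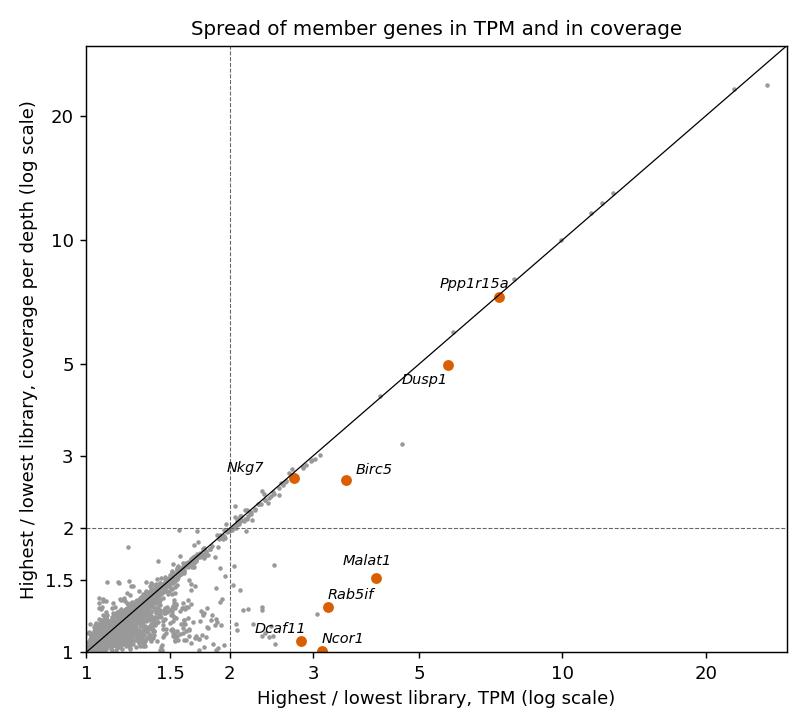
Highest over lowest library of each of the 3376 genes in TPM (x) and in coverage scaled to depth (y), both on log scales, with equality as a solid line and 2-fold as dashed lines. Ppp1r15a and Nkg7 lie near the line, and Ncor1, Dcaf11, Rab5if and Malat1 lie below it.

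At the threshold, the genes just inside were Khnyn, Cstpp1, Jmjd6, Med4 and Mir3082, whose lowest libraries lay between TPM 50.01 and 50.06. Just outside were Ubap2, Atp9a, Traj56, Ascc2 and Mtmr12, with their lowest library between 49.93 and 49.9965. A further 814 genes reached TPM 50 in some but not all libraries, 427 in 1 library and 387 in 2. The largest groups were 209 genes that missed it in replicate 3 alone and 187 that reached it in replicate 3 alone. Of these 814, 74 were antibody genes, all highest in replicate 3, which were left out of the ranking by spread together with T cell receptor segments, pseudogenes and unnamed gene models. Among the rest, the largest spreads were those of Hspa1a, Hspa1b, Jchain, Fos, Rabgap1l, Ccl5, Hba-a2, Hba-a1, Hbb-bs and Mzb1. In 9 of these 10 replicate 3 was the high library, and Rabgap1l, at 177, 16.3 and 167 with a coverage ratio of 1.12, was the exception.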

How the data were processed

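Total RNA of sorted spleen Tfr cells was made into libraries with a low-input full-length cDNA kit and Nextera XT, per the labels' protocols. Per the submitters' processing notes, reads were processed with STAR 2.7.11b and StringTie 2.1.3b on mm39. The annotation release and strand setting were not known here, so reads of overlapping genes on opposite strands may be mixed. Each table that the authors deposited holds, per the file headers, coverage, FPKM and TPM per gene. The deposited TPM column is treated as a score, because it lists each signal both under annotated gene IDs and under loci assembled in that library, whose rows sum to 1000000. Annotated rows held 96.7% to 97.6% of that sum. FPKM as deposited by the authors served only for an alternative threshold, and coverage, a signal per base by the authors, for depth (coverage over FPKM) and for spread.

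TPM rows were summed per gene ID with python 3.11.15, pandas 2.3.3 and numpy 2.4.6. Shares are of the summed TPM of annotated genes. Spread is the ratio of highest to lowest library and the SD of log2(TPM + 1). The threshold rule, the SD of log2(TPM + 1) and the median-ratio factors were tested on simulated data, and the ratios per gene were not. Read counts were not used, so depth gives no interval for a single value. Types were taken from GENCODE M21 (51880 gene IDs matched), coordinates from the deposited tables (mm39), and promoters from RefSeq (GRCm38.p6). Named were the 5 markers, the 20 highest genes, list members, the 10 smallest and the 10 largest spreads (antibody and T cell receptor genes, pseudogenes and unnamed gene models left out of these), and genes beside the threshold. Genes below the threshold, small gene models, microRNA genes, mitochondrial copies and the printed promoters were chosen after their values were seen. Members and lists were chosen with earlier results of these data known. The other group of the series, with 2 libraries, was not analysed here. Some genes are not reported here.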

Additional observations from a re-analysis of the deposited data

How the results depend on the processing

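The set of 3376 genes depended on the threshold and unit: TPM 25 gave 5577 genes holding 89.9% of the summed TPM, TPM 100 gave 1741 holding 67.0%, and FPKM 50 gave 1425. A mean TPM of 50 gave 3778, and the other scalings gave 3374 to 3520, so these changed the count by less. Leaving out each library gave 3440 to 3585 genes, a share of 80.9542% to 82.3% (main 80.6%), and a median SD of log2(TPM + 1) of 0.0672 (without replicate 3) to 0.116 (main 0.117). That SD was 0.118 with pseudocount 0.1, 0.113 with pseudocount 5, 0.110 with median-ratio factors and 0.120 with annotated rows scaled to 1000000. It was 0.104 over all genes above TPM 0 and 0.162 over genes at TPM 1 in all libraries. The value of 0.104 includes many genes near TPM 0, whose SD the pseudocount of 1 keeps small, so it does not show a smaller spread than in the set. The count within 1.5-fold was 12216 of 35563 and 10725 of 14412 genes over these 2 larger sets, against 3060 of 3376 (90.6%). Genes at TPM 0 in any library have no ratio and are not among those within 1.5-fold. An alternative chosen after seeing the data, coverage scaled to depth, gave 3166 within 1.5-fold. Another, the assembled loci, kept 2902 of 3072 protein-coding genes at TPM 50. No paired analysis was possible because a single group was described and no test was made. Low genes are the least certain, since their reads are few and the number of reads was not known here.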
